A study of Ovis aries and Mus musculus with 10 samples.

Results

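Star miRNAs are the strands of a miRNA hairpin that were given a name ending in an asterisk because they were thought to be the less abundant of the pair. They were chosen here by name alone: every mouse miRNA on the array whose name ended in an asterisk, apart from 1 entry that is not reported. This gave 113 star miRNAs of the 567 mouse miRNAs on the array, and 453 other mouse miRNAs had no asterisk. Total RNA of whole mammary gland was measured on 10 one-colour Agilent arrays, 5 for sheep and 5 for CD1 mice, none of them given any treatment. The sheep were in cycle (day 15), in gestation (days 14, 64 and 125) or in lactation (day 60). The mice were virgin, in gestation (day 10 or day 17) or in lactation (day 2 or day 10). Each stage and day had 1 array, and the labels do not say how many animals it represents. The probes were designed for mouse miRNAs on both species, so a low sheep signal can belong to a sheep miRNA that differs in sequence.

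A miRNA gene is transcribed as a hairpin that Drosha and Dicer cut to a short duplex of its 5′ (5p) and 3′ (3p) arms. An Argonaute protein keeps 1 strand, the guide, which pairs with target messenger RNAs through its seed, and the passenger strand is usually lost. Which strand is kept can differ between hairpins, tissues and species, and later naming therefore replaced the asterisk by the arm. In the mammary gland, the miR-200 family is known as a marker of epithelium, and the let-7 and miR-30 families are abundant.

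Signals are background-subtracted intensities in arbitrary units and can fall below 0. The scale of an array, taken as the 75th percentile over 94 miRNAs that every array detected, ran from 788.5 to 1998 in sheep and from 245.6 to 936.6 in mouse, so unscaled signals of different arrays also differ for that reason. Both unscaled signals and signals as a percentage of that percentile are therefore given. Slide 2 held mouse virgin and mouse gestation day 10, and slide 1 held the 8 remaining arrays. All 6 epithelial marker miRNAs (miR-205, miR-429, miR-141 and the miR-200a, miR-200b and miR-200c guides) were detected on every array, with a summed level of 386 to 1160% of the percentile in sheep and 180 to 1420% in mouse.

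Most star miRNAs were not seen in either gland. Agilent's detection flag was set on at least 1 array for 40 of the 113 (35.4%), against 226 of the 453 other miRNAs (49.9%) and 47.0% of all 566 described. The sets also differ in their numbers of probes, as given below. Of these 40, 19 were detected on 1 or 2 arrays, 19 on 3 to 9 arrays, and 2, miR-30a* and miR-140*, on all 10, where 91 of the other miRNAs were detected on all 10. A stricter flag, well above background, was set at least once for 28. Both species gave 13 of the 40, sheep alone 19 and mouse alone 8, and the other miRNAs divided as 161, 40 and 25.

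The number of star miRNAs detected differed between arrays. In sheep it was 23 at cycle day 15, 22 at gestation day 14, 24 at gestation day 64, 11 at gestation day 125 and 14 at lactation day 60. In mouse it was 6 in virgin gland, 7 at gestation day 10, 21 at gestation day 17, 10 at lactation day 2 and 9 at lactation day 10. The 3 sheep arrays before late gestation and mouse gestation day 17 stood above the rest, and sheep and mouse overlapped. The other miRNAs followed with 183, 183 and 174 on the highest sheep arrays and 176 at mouse gestation day 17, against 115 to 148 on the remaining 6. Stars were 10.7 to 11.7 of every 100 miRNAs detected on those 4 arrays and 4.03 to 9.03 on the other 6. These are also the 3 arrays with the highest scale in sheep and the one with the highest scale in mouse, and the part of array scale in these counts was not tested.

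**Figure D1:**
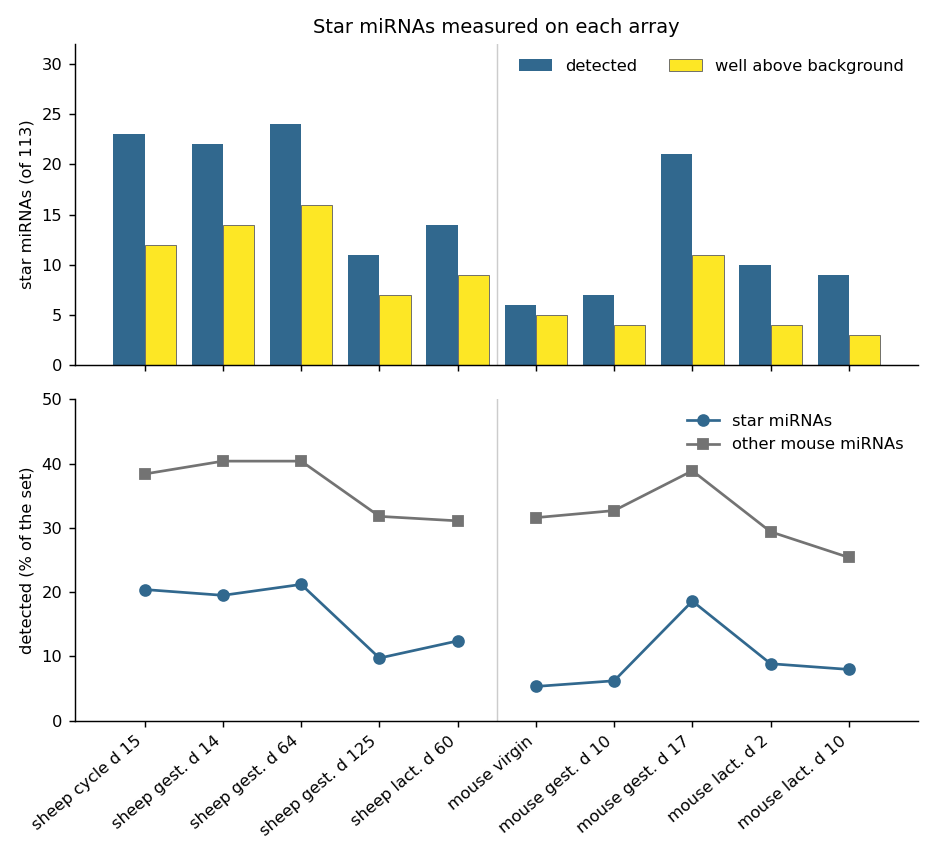
Upper panel: number of the 113 star miRNAs (y axis) flagged as detected or as well above background on each of the 10 arrays (x axis). Lower panel: percentage detected of the star miRNAs and of the 453 other mouse miRNAs; stars ran from 5.31% in virgin mouse to 21.2% at sheep gestation day 64, below the other miRNAs on every array.

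Where stars were detected they were faint. The median signal of the detected stars lay between 10.4 and 22.4 on the 10 arrays, and that of the detected other miRNAs between 73.7 and 123. The 300 miRNAs never detected had medians of -6.25 to -2.09. Detection went with the number of probes: 19 of 29 stars with 2 probes were detected at least once (65.5%), against 19 of 81 with 4 probes (23.5%). For the other miRNAs the shares were 73.5% of 257 and 18.6% of 183. Stars more often had 4 probes (81 of 113, against 183 of 453). The lower share of stars detected can therefore not be told apart from this difference in probe number. Signals were averaged over probes, and 19 of the 40 detected stars had 4 probes, against 34 of the 226 detected other miRNAs. At sheep cycle day 15 the 4 probes of miR-200b*, for instance, read 98.7, 23.7, 6.73 and -6.6. The part of probe number in the lower signal of stars was not tested. By arm, as read from probe coordinates, 19 of 56 stars on the 3p arm were detected at least once (33.9%) and 12 of 39 on the 5p arm (30.8%), with 18 not assigned. That reading was right for 57 of 58 pairs whose names state their arms, the miss being miR-450a.

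By family, beside the 35.4% of all stars detected at least once, all 5 stars of the miR-30 family and all 3 of the miR-29 family were, but on 3 or more arrays only 2 and 1 of them. The miR-200 family gave 3 of 4 and let-7 4 of 7, each of them on 3 or more arrays, and the imprinted Dlk1-Dio3 region 4 of 13, with 2 on 3 or more. The miR-17-92 cluster and its paralogs, which are known for promoting proliferation, gave 2 of 8, none of them on 3 arrays. The miR-23/27/24 group gave 1 of 4 and the embryonic miR-290 and miR-302 clusters 1 of 6. None of the 5 stars of the miR-15/16 group with miR-322 and miR-503 was detected.

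miR-30a* (mm9 chr1:23279159-23279175, 3p arm) is the partner of miR-30a, an abundant miRNA of epithelia, and was measured on all 10 arrays. Its unscaled signal in sheep was 94.1 at cycle day 15, 110 at gestation day 14, 97.3 at gestation day 64, 287 at gestation day 125 and 107 at lactation day 60. In mouse it was 32.1 in virgin gland, 44.4 and then 90.4 in gestation, and 32.3 and then 15.1 in lactation. Every sheep signal was above every mouse signal, with sheep gestation day 125 the highest. As a percentage of the 75th percentile the species overlapped, at 4.71 to 30.5 in sheep and 5.36 to 9.65 in mouse. The guide miR-30a peaked on the same sheep array, at 5690, or 606% of the percentile.

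The star of miR-30a varied less in its ratio to the guide than in level. Its log2 ratio to the guide had a median of -4.20 (SD 0.33, 10 arrays), with the guide 18.3 times brighter. The log2 ratio spanned 1.19 over the arrays, while the star spanned 2.70 on the scaled log2 signal and 4.24 on the unscaled one, which also holds the differences in array scale. Star and guide are read by different probes, so the size of any such ratio also holds the probes' own brightness, and only its change between arrays can be compared.

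miR-30e* (chr4:120445223-120445240, 3p arm) comes from another hairpin of that family. It gave 79.3, 56.0, 49.0, 40.1 and 22.5 on the sheep arrays from cycle to lactation. In mouse it was detected at gestation day 10 (10.5), gestation day 17 (32.4) and lactation day 2 (8.22), and not in virgin gland (7.30) or at lactation day 10 (1.39). Its median log2 ratio was -3.12, with -3.16 to -2.78 in sheep and -3.93 to -3.16 in mouse, ranges that meet at 1 value. The miR-30b*, miR-30c-1* and miR-30c-2* stars were each detected on 1 or 2 arrays, the highest being 17.0 for miR-30c-2* at mouse gestation day 17.

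**Figure D2:**
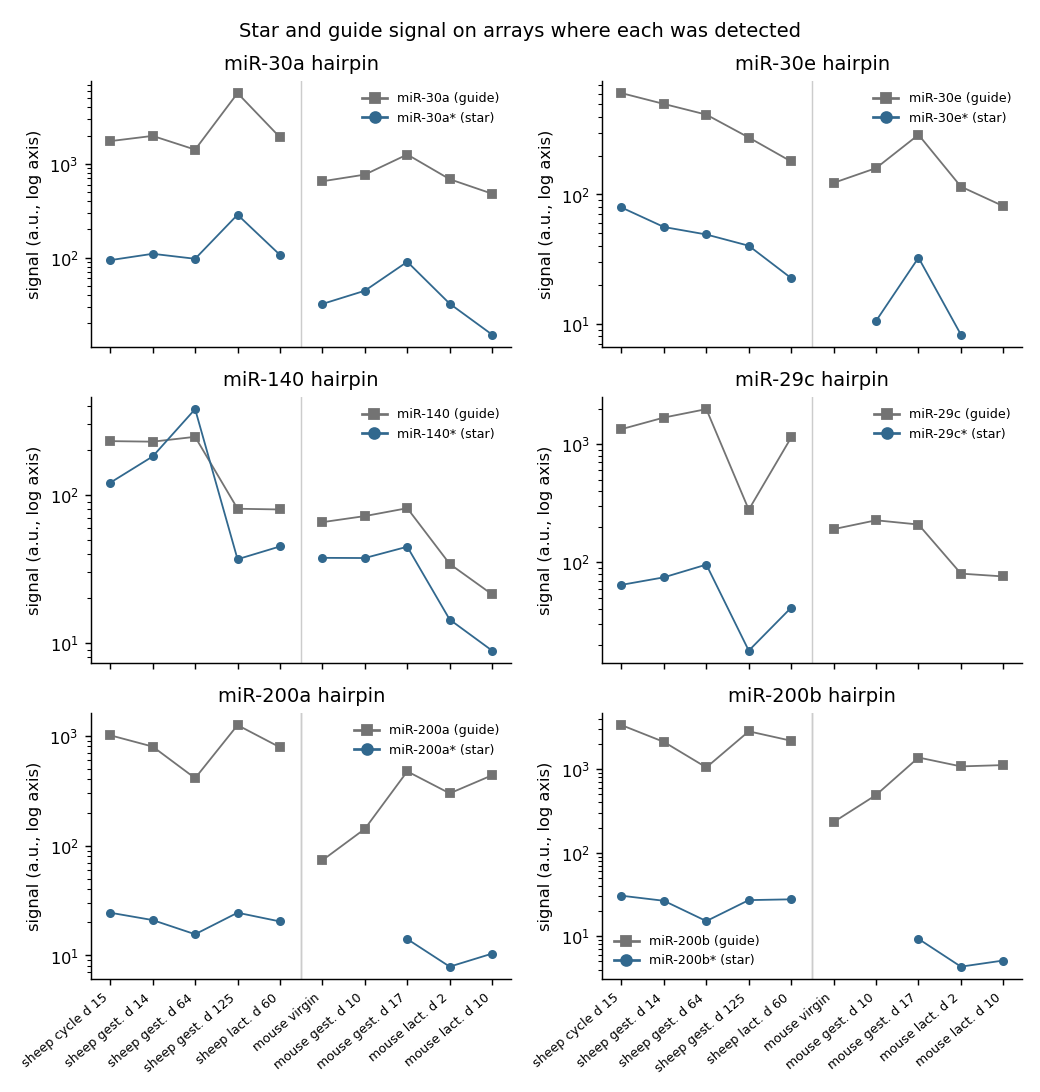
Signal in arbitrary units (y axis, log scale) of star (circles) and guide (squares) for 6 hairpins on the 10 arrays (x axis), drawn only where detected and joined within a species. miR-30a* and its guide both peak at sheep gestation day 125, and miR-140* lies above its guide only at sheep gestation day 64 (380 against 247).

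miR-140* (chr8:110075194-110075208, 3p arm) belongs to the hairpin of miR-140, known for its role in cartilage. Its sheep signals were 121, 182, 380, 36.8 and 44.9 from cycle day 15 to lactation day 60. Its mouse signals were 37.6 in virgin gland, 37.5 and 44.7 in gestation, and 14.4 and 8.88 in lactation. Sheep gestation day 64 stood apart, at 24.3% of the 75th percentile against 3.92 to 9.95% on the other sheep arrays and 3.62 to 6.29% in mouse. The guide varied far less on that scale, from 8.59 to 15.8% in sheep and 8.66 to 10.9% in mouse. Both miR-140* probes were highest on that array, at 589 and 171, against 282 and 82.4 at gestation day 14. Their targets are nested, at 15 and 14 bases, so they are not independent readings.

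The miR-140 star had a median log2 ratio to its guide of -0.90, or 53.6% of the guide signal. Without sheep gestation day 64, where it was 0.62, the ratio lay between -1.26 and -0.33. From another hairpin, miR-135a* was also highest at sheep gestation day 64. It was 27.2 at day 14 and 87.4 at day 64, at most 4.37 elsewhere, while its guide miR-135a was never detected. The 4 miR-135a* probes gave 74.6 to 101 at day 64. They cover nested targets of only 13, 12, 11 and 10 bases, so they are not independent. The 10-base probe (81.4) read above the 11-base one (74.6), so the signal did not fall steadily with target length. The specificity of this signal was not tested.

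miR-29c* (chr1:196863757-196863777, 5p arm) partners miR-29c, a family known to target collagen and other matrix transcripts. It was detected on the 5 sheep arrays, at 64.5, 74.7, 95.7, 17.9 and 41.4, and on no mouse array, where it gave 2.17 to 7.27. The groups did not overlap, unscaled or as a percentage of the 75th percentile (1.91 to 6.13 in sheep, 0.466 to 0.939 in mouse). It was not well above background on any mouse array, so the fold can only be given against a limit. Each mouse array was counted at its lowest signal well above background, or at the star's own signal where that was higher. This limit ran from 4.33 to 14.6 in unscaled signal. The fold was taken on signals divided by each array's 75th percentile, with a mean log2 of -4.71 in sheep and -6.27 for the limit. On that scale the sheep level was 2.95-fold higher. The limit is not a detection limit: at mouse lactation day 2 it was 4.33 unscaled, where the undetected let-7b* read 11.5. This limit is lower than the common floor of the limma fit, against which the log2 difference was 0.54. The guide was detected on all 10 arrays, at 279 to 1980 in sheep and 76.0 to 227 in mouse, and the ratio in sheep was -4.79 to -3.96. miR-29a* and miR-29b* were detected on 1 and 2 sheep arrays, at no more than 5.08 and 3.91.

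In the epithelial miR-200 family, the stars of miR-200a and miR-200b were lowest in mouse where their guides were lowest. miR-200a* (chr4:155429058-155429073, 5p arm) gave 24.5, 21.0, 15.6, 24.5 and 20.4 in sheep. In mouse miR-200a* was below 0 in virgin gland (-5.33) and at gestation day 10 (-0.204), then 14.1 in late gestation and 7.91 and 10.4 in lactation. The guide miR-200a was lowest on the same pair of mouse arrays, at 73.6 and 142, which were the slide 2 arrays and had the lowest epithelial marker sums (180% in virgin gland). Those sums include the miR-200a and miR-200b guides themselves, so they are no separate measure of epithelium. The part of slide and of epithelial share was not tested, and in such whole tissue fewer epithelial cells and less RNA per cell cannot be told apart. The miR-200a ratio was -5.67 to -4.72 in sheep and -5.39 to -5.08 in mouse, so it overlapped.

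miR-200b* (chr4:155429830-155429844, 5p arm) gave 30.6, 26.6, 15.2, 27.1 and 27.7 in sheep, and 9.31, 4.33 and 5.13 on the last 3 mouse arrays, with -7.81 and -5.64 on the 2 earlier ones. Its ratio to miR-200b was -6.78 to -6.11 in sheep and -7.96 to -7.22 in mouse, which did not overlap. With the brightest probe alone these were -5.89 to -5.25 and -6.32 to -6.13, still apart, and with another background correction (normexp) they overlapped, at -4.89 to -3.20 and -4.28 to -4.01.

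From the second cluster of that family, miR-141* (chr6:124667977-124667993, 5p arm) was detected in mouse only. It gave 15.9 at gestation day 17, 12.4 at lactation day 2 and 6.51 at lactation day 10, and -5.18 and -4.86 on the other mouse arrays. Every sheep signal was below 0 (-6.96 to -3.42), although the guide miR-141 was detected at 1720 to 2880 in sheep and only 184 to 1440 in mouse. Its cluster partner miR-200c* was never detected, and against the same kind of limit the guide miR-200c was 337-fold brighter in the median over arrays.

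The stars of let-7, a family known for restraining proliferation, were at the edge of detection. let-7b* gave 11.2 to 19.1 on slide 1 and 3.83 to 5.73 on slide 2, and let-7f* 11.0 to 18.6 and 4.28 to 7.09. miR-191* (9.54 to 17.0 and 3.13 to 7.54) and miR-877* (13.2 to 21.2 and 8.49 to 9.58) showed the same flat pattern, and none of the 4 was detected on slide 2. On slide 1 these signals ranged 1.61- to 1.78-fold, while the array scale ranged 8.14-fold. The miR-191 guide was never detected, at -11.3 to -1.80. The let-7b ratio ran from -9.99 to -6.48, an 11.4-fold range where the star ranged 1.58-fold. By species the let-7b ratio was -9.99 to -8.82 in sheep (4 arrays) and -7.99 to -6.48 in mouse (2 arrays), and with normexp these ranges overlapped (-7.32 to -5.21 and -5.69 to -3.95). let-7c-1* and let-7c-2* were detected on 3 sheep arrays each, at no more than 7.52 and 5.57 on any sheep array. Without being flagged as detected, let-7c-2* read 5.75 at mouse gestation day 17, above every sheep signal.

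**Figure D3:**
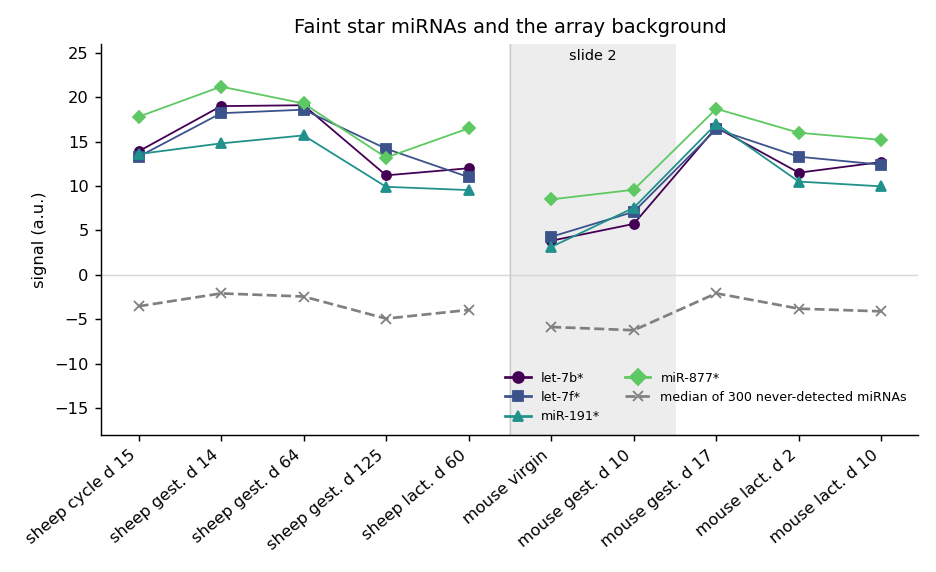
Unscaled signal (y axis, arbitrary units) of let-7b*, let-7f*, miR-191* and miR-877* on the 10 arrays (x axis), with the median of the 300 never-detected miRNAs; the shaded arrays are slide 2. The 4 stars lie between 9.54 and 21.2 on slide 1 and between 3.13 and 9.58 on slide 2.

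In the Dlk1-Dio3 region, a large imprinted miRNA cluster on mouse chromosome 12, miR-299* (chr12:110948856-110948875, 5p arm) was detected on 8 arrays. It gave 47.0, 26.4, 8.08, 19.4 and 12.8 in sheep and 25.0, 19.4, 16.4, 3.09 and 0.787 in mouse, and both lactating mouse arrays were the lowest. The strand named as its guide was below 0 on all 10 arrays, though flagged as detected on 1 sheep array. The flag can thus be set where the averaged signal is below 0, as also for miR-106b* at sheep cycle day 15 (-1.46). miR-411* (chr12:110948440-110948456, 3p arm) was 50.7, 24.5 and 12.2 on the 3 sheep arrays that detected it. Its lowest sheep signal was 1.39 and its highest mouse signal 2.55, so the species overlapped. Its median ratio was -1.03 over those 3 arrays.

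The remaining stars that met the naming rule included miR-24-1*, which was 40.1, 44.3, 38.4, 13.4 and 12.3 in sheep and -0.398 to 8.02 in mouse, with no overlap on either scale. miR-7a* was brighter than its guide on the 3 sheep arrays with both detected, at ratios of 0.42 to 0.79. The guide was faint there (8.68 to 13.0), and with normexp the ratios were 0.02 to 0.06. In mouse miR-7a* was not detected, while the guide was on 3 arrays. miR-455* was detected on 3 sheep arrays (10.1 to 17.2), miR-181a-1* on 3 sheep and 2 mouse arrays (10.1 to 14.9), and miR-674* on 3 mouse arrays (9.50 to 15.0). miR-378*, whose hairpin lies in a gene for a mitochondrial coactivator, was 16.2 at sheep gestation day 125 and 19.8, 12.7 and 18.5 in virgin and pregnant mice. As a percentage of the 75th percentile it was 0.155 to 1.73 in sheep and 1.80 to 3.32 in mouse, without overlap. Unscaled it overlapped, at 1.22 to 16.2 in sheep and 5.87 to 19.8 in mouse. It was detected on only 1 sheep and 3 mouse arrays and lay at the floor of the fit on 9 arrays, so most values compared were undetected.

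Across hairpins the guide was usually the brighter strand. The array held the guide of 102 stars, and both strands were detected together in 29 pairs. Of 97 ratios over pairs and arrays, 6 were above 0, in miR-140*, miR-7a*, miR-17* and miR-877*. The median log2 ratio was -4.34 in sheep (60 values) and -4.62 in mouse (37). For the 12 pairs with both strands detected on 3 or more arrays, medians ran from -9.04 (let-7b*) to 0.53 (miR-7a*). Within 11 of these 12 the ratio ranged less over arrays than the scaled star signal did, and within 9 less than the unscaled one. Array scale cancels in the ratio but stays in the unscaled star. Some scaled margins were small, as for miR-200b* (1.84 against 1.86) and let-7f* (2.68 against 2.92, where the unscaled star spanned 0.76). These counts were not tested. The lowest ratio of all pairs was that of miR-21*, at -11.08 over 2 sheep arrays.

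**Figure D4:**
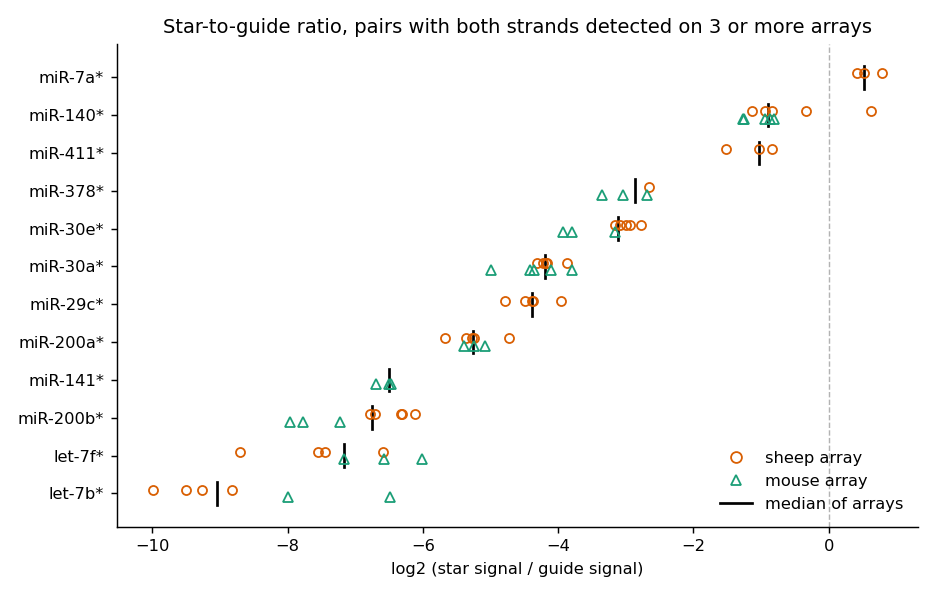
Log2 of star over guide signal (x axis) for the 12 pairs with both strands detected on 3 or more arrays, 1 point per array (circles sheep, triangles mouse), with the median as a bar. Medians run from -9.04 for let-7b* to 0.53 for miR-7a*. Sheep and mouse points do not overlap for let-7b* (2 mouse arrays), miR-200b* and miR-378* (1 sheep array, -2.66 against -3.35 to -2.69). With the normexp background correction let-7b* and miR-200b* overlap, and miR-378* does not (-0.99 against -1.37 to -1.08).

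Of the 40 stars whose guide was detected on all 10 arrays, 22 were never detected, where 73 of all 113 were not. Their guides ran from faint (miR-712, median 10.2) to bright (miR-200c, median 1400). The fold of the guide over that limit varied between arrays, from 38.0 to 2960 for miR-200c, from 109 to 930 for let-7i and from 23.3 to 685 for miR-20a. The lowest signal well above background itself ran from 0.9 at sheep lactation day 60 to 14.6 at mouse gestation day 10. On the former array the undetected miR-181a-1* read 4.14, so these folds are not strict lower bounds. In the other direction, 4 stars were detected while their guide never was: miR-191* (6 arrays), miR-674* (3), miR-135a* (2) and miR-295* (1 sheep array). Over all pairs and arrays, the star was flagged without its guide 29 times and the guide without its star 469 times.

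miR-133a*, from a hairpin of striated muscle, was detected only in virgin mouse (11.3) and at mouse gestation day 17 (6.86), where miR-133a was 305 and 134. The 4 striated muscle markers summed to 194 and 75.3% of the 75th percentile on those arrays, and to 1.09 to 9.26% on the other 8. These sums include miR-133a itself (51.0 and 14.3%), so they are not separate from it. The part of muscle in the result was not tested. miR-17* reached 33.0 at mouse gestation day 17, above its guide miR-17 at 20.1.

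Detection by species gave 7 stars seen on at least 3 sheep arrays and no mouse array (6.19% of members, against 4.59% of all miRNAs) and 2 with the reverse (1.77% against 2.47%). These are counts of flags and not of differences in level. Among the 21 stars detected on 3 or more arrays, sheep lay above mouse without overlap for 6 unscaled (background 19.2%) and for 2, miR-24-1* and miR-29c*, on the scaled signal (background 14.1%). Mouse lay above sheep without overlap for 1 on the scaled signal, miR-378* (background 14.1%), and for 0 unscaled (background 5.63%).

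These 21 stars entered the fit over all 213 miRNAs (limma, additive in species and stage class, Benjamini-Hochberg adjustment), and none passed an adjusted p of 0.05. The background called was 21.6% for sheep minus mouse, 2.82% for lactation minus gestation, 3.76% for lactation minus not pregnant and 0.469% for gestation minus not pregnant. At an unadjusted p under 0.05, limma called 1, 0, 0 and 0 stars, the 1 being miR-29c*, against 76, 34, 40 and 5 of all 213 miRNAs. These unadjusted counts depend on the processing. With normexp they were 3, 17, 0 and 10 stars, against 79, 83, 23 and 53 of all 213. With a floor 4 times lower they were 10, 6, 7 and 0 stars, against 110, 59, 65 and 3. Without scaling they were 6, 0, 1 and 1 stars, against 111, 63, 53 and 2. Of 66 guide partners tested, 14 passed in sheep minus mouse, 6 higher and 8 lower in sheep. Values under a floor of 0.029 of the 75th percentile were raised to it, and 8 of the 21 stars had this floor value everywhere. Another 10 were above it on 1 to 4 arrays and 3 (miR-30a*, miR-140* and miR-30e*) on at least 5, so for 18 stars the fit compared mostly floor values and says little about their levels.

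For miR-29c* the fitted log2 difference between sheep and mouse was 0.54 ± 0.22 (SE; adjusted p = 0.129, limma), but 6 of its 10 values, those of all 5 mouse arrays among them, were set by the floor, so neither the difference nor its SE measures the mouse level. miR-30a* and miR-140* were above the floor on all 10 arrays. miR-30a* differed by 0.44 ± 0.52 (adjusted p = 0.597, limma) between species and by 0.04 ± 0.60 (adjusted p = 1, limma) between lactation and gestation, a difference that turned to -0.24 when sheep lactation day 60 was left out. miR-140* differed by 0.66 ± 0.50 (adjusted p = 0.399, limma) and by -0.66 ± 0.58 (adjusted p = 0.705, limma). Without sheep gestation day 64 the miR-140* differences were 0.33 and -0.36, and without sheep gestation day 125 the miR-30a* species difference was 0.08. With 1 array per day, the spread behind these errors is that between days within a class together with any difference in stage change between the species. Without scaling, 5 stars passed in sheep minus mouse (miR-200a*, miR-200b*, miR-29c*, miR-30a* and miR-30e*, all higher in sheep), against 87 of all 213 miRNAs. Of those 87, 69 were higher in sheep, and the median over all 213 miRNAs was 0.69 higher in sheep.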

How the data were processed

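RNA was read with Cy3 on one-colour Agilent arrays. The deposited scanner files hold an intensity per spot, background-subtracted by Agilent Feature Extraction 10.5.1.1 per the file headers (9.5 per the submitters' processing notes), with no scaling between arrays, and detection flags from the same software. The value table the authors deposited is an intensity too: it equalled Agilent's total signal times 1 constant per array, within 0.1% for 98.65 to 100% of miRNAs with a total above 50. Its column medians were -0.526, 0.307, 0.266, -3.94 and -2.80 in sheep and -11.2, -5.06, 0.836, -2.35 and -11.6 in mouse. The basis of its scale and centring is unknown.

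Outlier spots were left out, and spots, then probes, were averaged. Signals were divided by each array's 75th percentile over 94 miRNAs detected on all 10 arrays, floored at 0.029 (log2 -5.11), and tested if detected on at least 3 arrays, which left 213. A miRNA was well above background where over a fraction of 0.5 of the spots of a probe were flagged. The fit used R 4.3.3 and limma 3.58.1, with 6 residual degrees of freedom and an adjusted threshold of 0.05, and was tested on simulated data. The number of arrays limits the precision. Ratios used unscaled signals where both strands were detected and above 0, and have no test.

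Stars were named if detected on at least 5 arrays, past the threshold, among the 5 highest or 5 lowest ratio medians, or detected on at least 3 arrays of 1 species and none of the other, which gave 21. miR-135a*, miR-17*, miR-133a*, miR-21* and the family members given by range were chosen after their values were seen. Members, lists and alternatives were chosen with earlier results of these data known. Arms were read from mm9 probe coordinates, pairing strands within 150 bases. 1 star entry is not reported here.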

Additional observations from a re-analysis of the deposited data

Results flagged for a closer look

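Of 54 groups of arrays examined for 1 array far from the others, 2 gave one, and chance gives about 1 in 20. miR-378* stood at 1.73% of the 75th percentile at sheep gestation day 125, where the nearest sheep array had 0.516% and the lowest 0.155%. The number of star miRNAs detected was 21 at mouse gestation day 17, where the nearest mouse array had 10 and the lowest 6.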

How the results depend on the processing

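No star passed in any of the 4 comparisons, and that count of 0 held with slide as a term, quantile normalization, no detection filter, the brightest probe, a percentile over every miRNA, and the authors' table. In sheep minus mouse it became 5 without scaling, 1 with normexp (miR-674*) and 6 with a floor 4 times lower. Of all 213 miRNAs, 87, 60 and 95 were called in those fits. The lower floor gave 1 star in lactation minus gestation (miR-877*) and 4 in lactation minus not pregnant (let-7b*, let-7f*, miR-191*, miR-877*). Of all 213 miRNAs, 24 and 29 were called there. Leaving out 1 array at a time gave 0 to 1 in sheep minus mouse (1 without sheep gestation day 125, miR-29c*), 0 in lactation minus gestation, and 0 to 2 in both comparisons with not pregnant (2 without sheep cycle day 15, miR-299* and miR-378*, where virgin mouse alone stands for the class). With normexp, sheep minus mouse turned to -0.04 for miR-29c*, -0.06 for miR-30a* and -0.01 for miR-140*, and lactation minus gestation turned to 0.26 for miR-140*; all miRNAs shifted by a median of -0.46 and 0.65 there. For miR-30a*, lactation minus gestation turned to -1.06 without scaling and ranged from -0.24 to 0.36 leaving out 1 array at a time, reversing to -0.13, -0.12, -0.24 and -0.09 in 4 of those fits. The median number of stars detected in sheep was 22, and 12 when well above background was required. The median ratio became -2.47 in sheep and -2.71 in mouse with normexp, which adds an offset of 50 to every signal. Leaving out miRNAs at the floor on all 10 arrays was chosen after seeing the data and changed no star's call, while calls over all miRNAs went from 46 to 59, 6 to 15, 8 to 11 and 1 to 0. No paired analysis was possible because replicate numbers here come from accession order alone.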
